A study of Mus musculus with 12 samples.

Results

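A set of 10 genes of the DNA damage checkpoint and of meiotic silencing were followed at the level of RNA and of translation in testes with and without Maelstrom. They were the gene rows of the deposited count table named *Atm*, *Atr*, *Chek1*, *Chek2*, *Brca1*, *H2afx* (now *H2ax*), *Mdc1*, *Topbp1*, *Trp53* and *Trp63*, 10 of 20620 gene rows, of which 18024 held counts. All 10 passed the filter on low counts in both assays. On GRCm38, 5 of them lie on chromosome 9, namely *Chek1* (chr9:36708482-36726658), *H2afx* (chr9:44334715-44336077), *Atm* (chr9:53437122-53536828), *Atr* (chr9:95857597-95953217) and *Topbp1* (chr9:103305167-103350428). The others are *Chek2* (chr5:110839800-110874140), *Trp53* (chr11:69580348-69591873), *Brca1* (chr11:101488761-101551955), *Trp63* (chr16:25683763-25892088) and *Mdc1* (chr17:35841495-35859670), so all 10 are autosomal. Maelstrom (*Mael*) is a factor of the piRNA pathway, the small RNA defence that represses retrotransposons such as LINE-1 in germ cells. Whole testes of C57BL/6 mice at postnatal day 16, either *Mael*+/- or *Mael*-/-, were the source of all libraries, with 3 replicates per genotype for RNA and 3 for ribosome footprints. The comparison group thus carried 1 mutant allele of *Mael*, and no wild-type testes were analysed here. Each extract gave both an RNA library (total RNA depleted of ribosomal RNA) and a footprint library (fragments that ribosomes shielded from a nuclease). At this age testes hold spermatogonia, spermatocytes in meiotic prophase and somatic cells, so each value is a mixture of cell types.

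The checkpoint kinases ATM and ATR sense broken or incompletely replicated DNA and pass the signal to the kinases CHK2 and CHK1 and to the transcription factor p53. In spermatocytes, the same proteins mark the chromosomes that have not synapsed, above all the X and Y. BRCA1 and TOPBP1 bring ATR to these axes, MDC1 spreads ATR and the phosphorylated histone H2AX into the chromatin loops, and transcription there stops, which is called meiotic sex chromosome inactivation. Damaged oocytes are removed through the p63 protein, and p53 and p63 both act downstream of CHK2 there. These activities are set mainly by phosphorylation and location, which neither assay measures.

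Gene counts summed to between 13697267 and 27462358 in the RNA libraries and to between 7609932 and 13233565 in the footprint libraries. *Mael* itself followed the labels. Its RNA counts were 5045, 4314 and 3800 in the *Mael*+/- libraries and 1, 2 and 0 in the *Mael*-/- libraries, and its footprint counts were 1294, 660 and 863 against 0, 0 and 7. Markers of testis cells were present as well: summed over 7 genes, Sertoli cell markers lay between 1371 and 1534 CPM (counts scaled to a common library total) in all RNA libraries. Of the spermatid markers, *Prm1* had 0 counts in every library and *Prm2* at most 1. The extract of *Mael*+/- replicate 1 stood apart. Its 10 pachytene spermatocyte markers summed to 884 CPM in RNA, against 326 and 337 CPM in the other *Mael*+/- libraries and 259 to 298 CPM in the *Mael*-/- libraries, and in footprints to 1034 CPM against 282 to 390 CPM in the other 5. The sum of its 7 markers of early meiotic prophase was likewise highest, at 1866 CPM in RNA against 640 to 960 CPM. *Sycp1*, *Sycp2* and *Sycp3* weigh most in this sum, with means of 4668 to 6667 RNA counts against 808 to 1893 for the other genes. Between genotypes the 7 were divided in RNA, with 4 log2 differences below 0 and 3 above, among them *Prdm9* (0.22) and *Rec8* (0.16). In whole testes, fewer cells of a type and less RNA per cell cannot be told apart.

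*H2afx* encodes the histone variant whose phosphorylated form marks breaks and the sex body, and it is shown here by its DNA because its coding sequence and its 3′ end bear on how it is counted. It lies on chromosome 9 of GRCm38 as a gene with a single coding exon. The last 30 coding bases are given first, with capitals on the codons for the serine that is phosphorylated and the glutamine that follows it. The second stretch is from the 3′ untranslated region, where capitals, starting 46 bases after the stop codon, mark the inverted repeat that forms the histone stem-loop, the signal for ending histone mRNAs without a poly(A) tail.
H2afx coding end, chr9:44335164-44335193, plus strand: aaggcctcgcaggccTCTCAGgagtactga
H2afx stem-loop, chr9:44335235-44335260, plus strand: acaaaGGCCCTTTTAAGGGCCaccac
The total RNA libraries were not selected for poly(A), so RNA that ends at the stem-loop and longer RNA with a poly(A) tail were counted together. Of the stretches of 28 bases in the *H2afx* coding sequence, 156 of 402 (38.8%) also occurred in transcripts of other genes, mostly of replication-dependent H2A genes such as *Hist1h2ai*. Of the stretches of 75 bases, the length of the sequenced reads, 6.87% did. How reads with several matches were counted is not stated, so short footprints of *H2afx* are less certain than its RNA.

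*H2afx* was the member that differed most clearly between genotypes. Its RNA was at 1023, 900 and 869 CPM in *Mael*+/- testes and at 1199, 1340 and 1200 CPM in *Mael*-/- testes. Every *Mael*-/- library was above every *Mael*+/- library. The fitted difference was 0.43 on the log2 scale, a fold of 1.35 (SE 0.09 in log2, 95% interval 0.22 to 0.64). The edgeR quasi-likelihood test gave an unadjusted p of 0.0011 and, with Benjamini-Hochberg adjustment over all genes, an adjusted p of 0.388, so *H2afx* was not called. Only 0.272% of the genes tested had a smaller p. Footprints of *H2afx* were at 1356, 1047 and 1109 CPM in *Mael*+/- and at 1535, 1651 and 1357 CPM in *Mael*-/- testes. The groups again did not overlap, although the highest *Mael*+/- and the lowest *Mael*-/- library differed by less than 1 CPM. The footprint difference was 0.37 in log2 (SE 0.12), with an adjusted p of 0.998 in edgeR.

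The call on *H2afx* RNA depended on the test and on one library. DESeq2 called it, with an adjusted p of 0.0164 at a log2 difference of 0.42. Without *Mael*+/- RNA replicate 1, edgeR called it as well, with an adjusted p of 0.0353 at a log2 difference of 0.50. These settings called more genes in general, namely 0.403% of genes in DESeq2 and 0.43% without that library, against 0.116% in the edgeR test of all 6 RNA libraries. With each RNA library left out in turn, the log2 difference of *H2afx* in RNA lay between 0.37 and 0.50. Leaving out any other single RNA library gave no call in edgeR. The adjusted p was then 0.370 and 0.329 without *Mael*+/- replicate 2 or 3, and between 0.992 and 0.9998 without a *Mael*-/- library. In footprints, DESeq2 gave *H2afx* an adjusted p of 0.413.

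With all libraries, edgeR called no member in RNA, in footprints or in translation efficiency, the change of footprints beyond that of RNA. *H2afx* RNA was called by DESeq2 and by edgeR without *Mael*+/- RNA replicate 1. Among all genes, edgeR called 17 of 14685 in RNA (0.116%), 8 of 13500 in footprints (0.0593%) and 0 of 13448 in translation efficiency (0%), where 53 genes had an unadjusted p under 0.05 and DESeq2 called 0 too. At an unadjusted p under 0.05, 2 of the 10 members were found in RNA, *H2afx* and *Atr*, where 5.4% of all genes were. In footprints *H2afx* alone of the 10 was found, where 4.33% of all genes were. In RNA, the log2 difference was above 0 for 5 members and below it for 5, with a median of -0.00, as over all genes. In footprints, it was above 0 for 6 and below for 4, with a median of 0.05 against -0.01 over all genes. The intervals bound what these libraries could have missed: in RNA and in footprints, the 95% interval of each of the 10 members stayed within a 2-fold change in either direction, as did those of 88.7% and 90.9% of all genes. In RNA, 6 members stayed within 0.5 on the log2 scale, where 65% of all genes did.

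**Figure D1:**
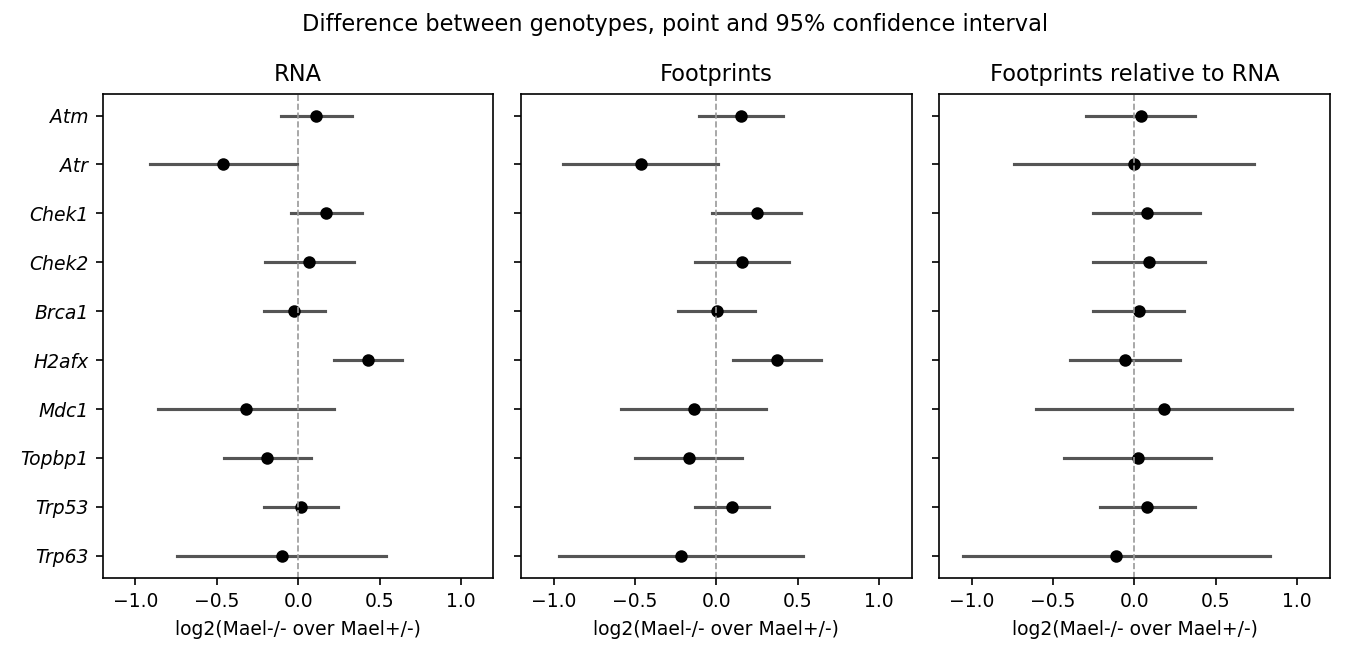
Differences between genotypes for the 10 genes, as log2 of *Mael*-/- over *Mael*+/- (x axis) in RNA, in footprints and in footprints relative to RNA. Points are edgeR estimates and bars their 95% confidence intervals; the interval of *H2afx* lies above 0 in RNA (0.22 to 0.64) and in footprints, and every interval of footprints relative to RNA includes 0.

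Among the kinases, *Atr* and *Atm* encode the sensors. *Atr* RNA was at 721, 392 and 435 CPM in *Mael*+/- and at 405, 387 and 327 CPM in *Mael*-/- testes. *Mael*+/- replicate 1 was far above the other 5 libraries, and the groups overlapped with and without it. Its footprints were at 885, 463 and 462 CPM in *Mael*+/- and at 419, 465 and 427 CPM in *Mael*-/- testes, with the same library apart. The log2 difference in RNA was -0.46 (SE 0.20, unadjusted p = 0.046, edgeR adjusted p = 0.923), and without that library -0.14. In footprints it was -0.47 (SE 0.22, edgeR adjusted p = 0.998), and without that library -0.08. The gene *1700065D16Rik* lies in the span of *Atr* on the opposite strand and shares 5.32% of the stretches of 28 bases in the *Atr* coding sequence together with *Gm16794*. It reached at most 1.10 CPM in any library.

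*Atm* had a smaller difference with a positive sign. Its RNA was at 254, 223 and 235 CPM in *Mael*+/- and at 278, 257 and 229 CPM in *Mael*-/- testes, a log2 difference of 0.11 (SE 0.10). Its footprints were at 268, 229 and 200 CPM and at 243, 274 and 255 CPM, a log2 difference of 0.15 (SE 0.12). Leaving out 1 library at a time moved it between 0.04 and 0.18 in RNA and between 0.05 and 0.26 in footprints. The genotypes overlapped in both assays, and the adjusted p in edgeR was 0.982 in RNA and 0.998 in footprints.

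The downstream kinases CHK1 and CHK2 were encoded by RNAs of lower abundance. *Chek1* RNA was at 36.9, 32.6 and 33.0 CPM in *Mael*+/- and at 38.4, 39.3 and 37.3 CPM in *Mael*-/- testes, so that the groups did not overlap. The log2 difference was 0.17 (SE 0.10), with an adjusted p of 0.972 in edgeR. Its footprints were at 48.9, 35.5 and 41.0 CPM against 51.3, 48.7 and 48.9 CPM, where the groups overlapped (0.25 on the log2 scale, SE 0.12). *Chek2* showed the opposite arrangement. Its RNA overlapped, at 13.2, 14.7 and 15.1 CPM against 16.1, 14.0 and 14.8 CPM, while its footprints did not, at 13.1, 12.5 and 13.9 CPM against 14.7, 14.1 and 15.3 CPM. The log2 difference of *Chek2* footprints was 0.16 (SE 0.13), with an adjusted p of 0.998 in edgeR. At 97 to 194 footprints per library, counting alone limits its precision.

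Counted over the list, *Chek1* and *H2afx* were the 2 members whose RNA was higher in all *Mael*-/- than in all *Mael*+/- libraries, where 4.77% of all genes were. *Chek2* and *H2afx* were the 2 in footprints, where 4.19% of all genes were. *H2afx* was the 1 member for which this held in both assays, as it did for 135 of 13448 genes (1%). No member was lower in all *Mael*-/- libraries of either assay, where 5.67% of all genes were in RNA and 4.87% in footprints.

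**Figure D2:**
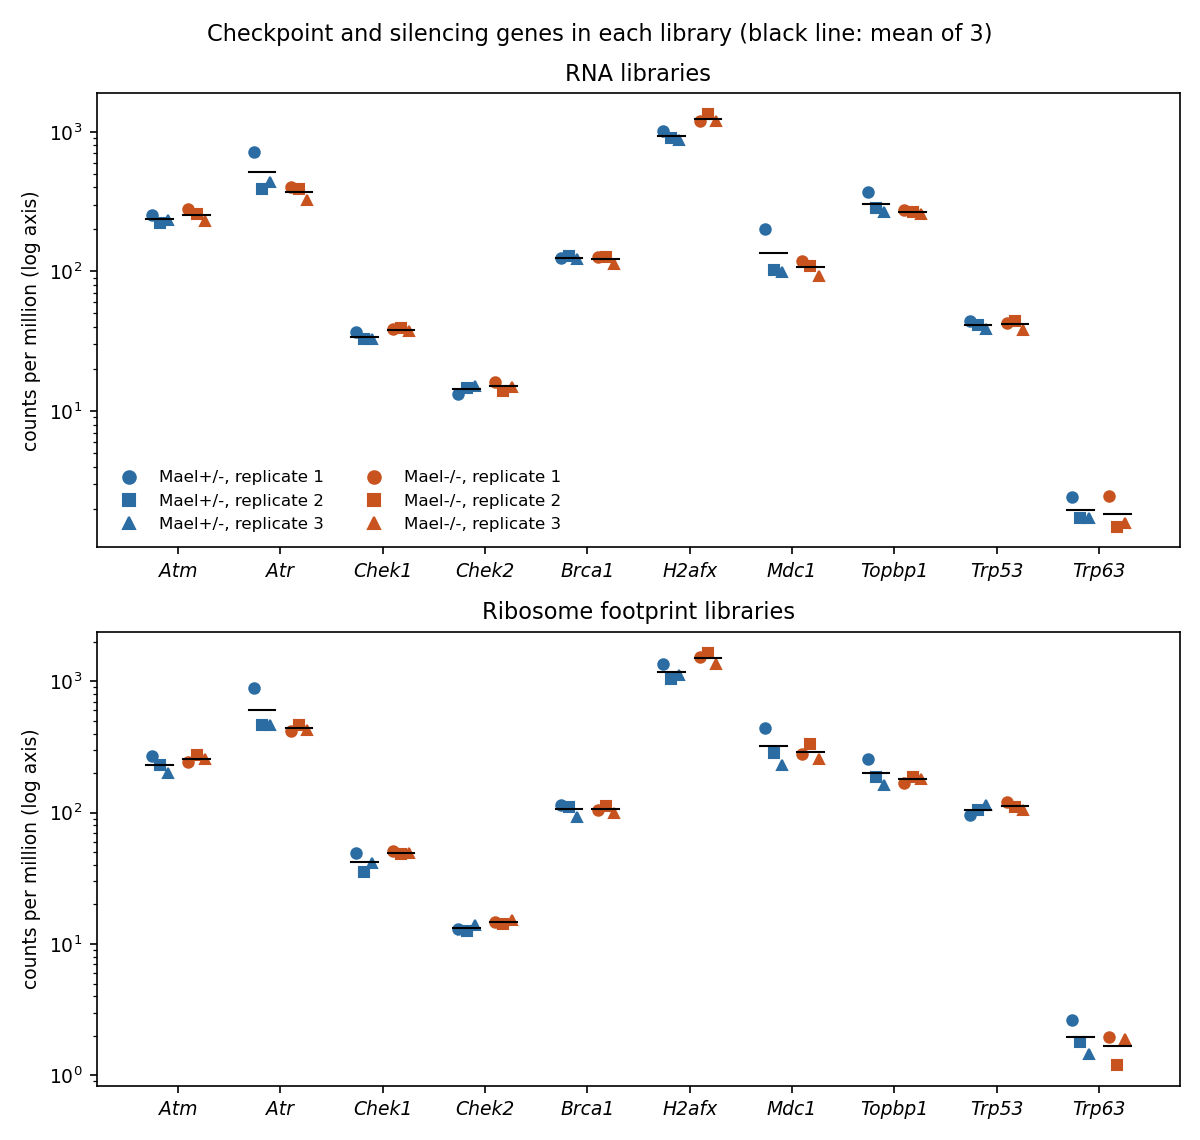
CPM (y axis, log scale) of the 10 genes in each of the 6 RNA libraries (top) and 6 footprint libraries (bottom), with the mean of each group of 3 as a black line. *Mael*+/- replicate 1 is apart from the other libraries for *Atr* (721 CPM in RNA) and *Mdc1* (202 CPM), and *H2afx* is the gene whose groups separate in both panels.

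The scaffold proteins TOPBP1, MDC1 and BRCA1 connect ATR to unsynapsed chromatin. *Mdc1* RNA was at 202, 103 and 99.2 CPM in *Mael*+/- and at 119, 109 and 93.4 CPM in *Mael*-/- testes. *Mael*+/- replicate 1 was again alone at the top, and the other 5 libraries overlapped. Its footprints were at 441, 285 and 232 CPM against 279, 335 and 256 CPM. The log2 difference of *Mdc1* was -0.32 in RNA (SE 0.24, edgeR adjusted p = 0.982) and -0.14 in footprints (SE 0.20). Without *Mael*+/- replicate 1 it changed sign, to 0.09 in RNA and 0.16 in footprints. *Topbp1* RNA was at 368, 285 and 266 CPM against 277, 267 and 257 CPM, and its footprints at 255, 187 and 162 CPM against 169, 187 and 180 CPM. Its log2 difference was -0.19 in RNA (SE 0.12) and -0.17 in footprints (SE 0.15), and -0.04 and 0.03 without *Mael*+/- replicate 1. *Brca1* was at 125, 129 and 123 CPM in RNA against 127, 128 and 114 CPM, and its footprints at 115, 110 and 92.4 CPM against 105, 113 and 100.1 CPM. With log2 differences of -0.02 in RNA (SE 0.08) and 0.00 in footprints (SE 0.11), *Brca1* had the smallest standard error of the list in RNA.

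The p53 family members *Trp53* and *Trp63* encode the transcription factors of the checkpoint. *Trp53* RNA was at 43.8, 41.6 and 38.9 CPM in *Mael*+/- and at 42.8, 44.3 and 38.1 CPM in *Mael*-/- testes, a log2 difference of 0.02 (SE 0.10, 95% interval -0.21 to 0.24). Its footprints were at 95.7, 104.5 and 114 CPM against 121, 111 and 104 CPM, a difference of 0.10 (SE 0.10). Of the stretches of 28 bases in the *Trp53* coding sequence, 415 of 1143 (36.3%) also occurred in the pseudogene *Trp53-ps*, so the placing of its footprints is uncertain. *Trp63* was the least abundant member. It had 30 to 56 counts in the RNA libraries and 12 to 26 in the footprint libraries, the former being 1.49 to 2.46 CPM. Its log2 difference was -0.10 in RNA (SE 0.29) and -0.22 in footprints (SE 0.34), the widest standard errors of the list. Without *Mael*+/- replicate 1 it changed sign, to 0.07 in each assay, and in RNA also without *Mael*-/- replicate 2 (0.03) or replicate 3 (0.01). In footprints relative to RNA, the interval of *Trp63* ran from -1.05 to 0.83, the widest of the list, and with the extract as a block from -0.87 to 0.59.

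The library that moved the differences of *Atr*, *Mdc1* and *Topbp1* was the one highest in the sums of pachytene and of early meiotic markers. In *Mael*+/- replicate 1, *Atr* RNA was 1.85 times the mean of the other 5 RNA libraries, *Mdc1* 1.92 times and *Topbp1* 1.36 times. A higher ratio was found for 2.83%, 2.55% and 8.95% of genes. In footprints the ratios were 1.98, 1.59 and 1.44. In RNA these 3 of the 10 members were highest in that library, where 28.3% of genes were. In footprints 5 members were, these 3 with *Brca1* (1.11 times) and *Trp63* (1.59 times), where 26.8% of genes were. The 3 were highest there in both assays, as were 18.7% of genes. *Chek1* and *Atm* RNA stood at 1.02 and 1.04 times the mean of the others in that library, and *H2afx* RNA at 0.928 times. The part of cell composition in these differences was not tested. Of the 8 pachytene markers that could be tested, each had a negative log2 difference in RNA (median -1.31), 5 had an unadjusted p under 0.05 and 0 were called by edgeR. The 2 peritubular markers summed to 792 to 826 CPM in *Mael*+/- and 882 to 929 CPM in *Mael*-/- RNA, without overlap and in the direction of *H2afx*, and to 1044 to 1280 CPM and 1255 to 1549 CPM in footprints, with overlap; their part in the *H2afx* difference was not tested. In RNA, macrophage markers summed to 85.8 to 146 CPM in *Mael*+/- and 129 to 149 CPM in *Mael*-/-, Leydig cell markers to 205 to 404 CPM and 173 to 438 CPM, and spermatogonial markers to 973 to 1157 CPM and 962 to 1048 CPM.

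**Figure D3:**
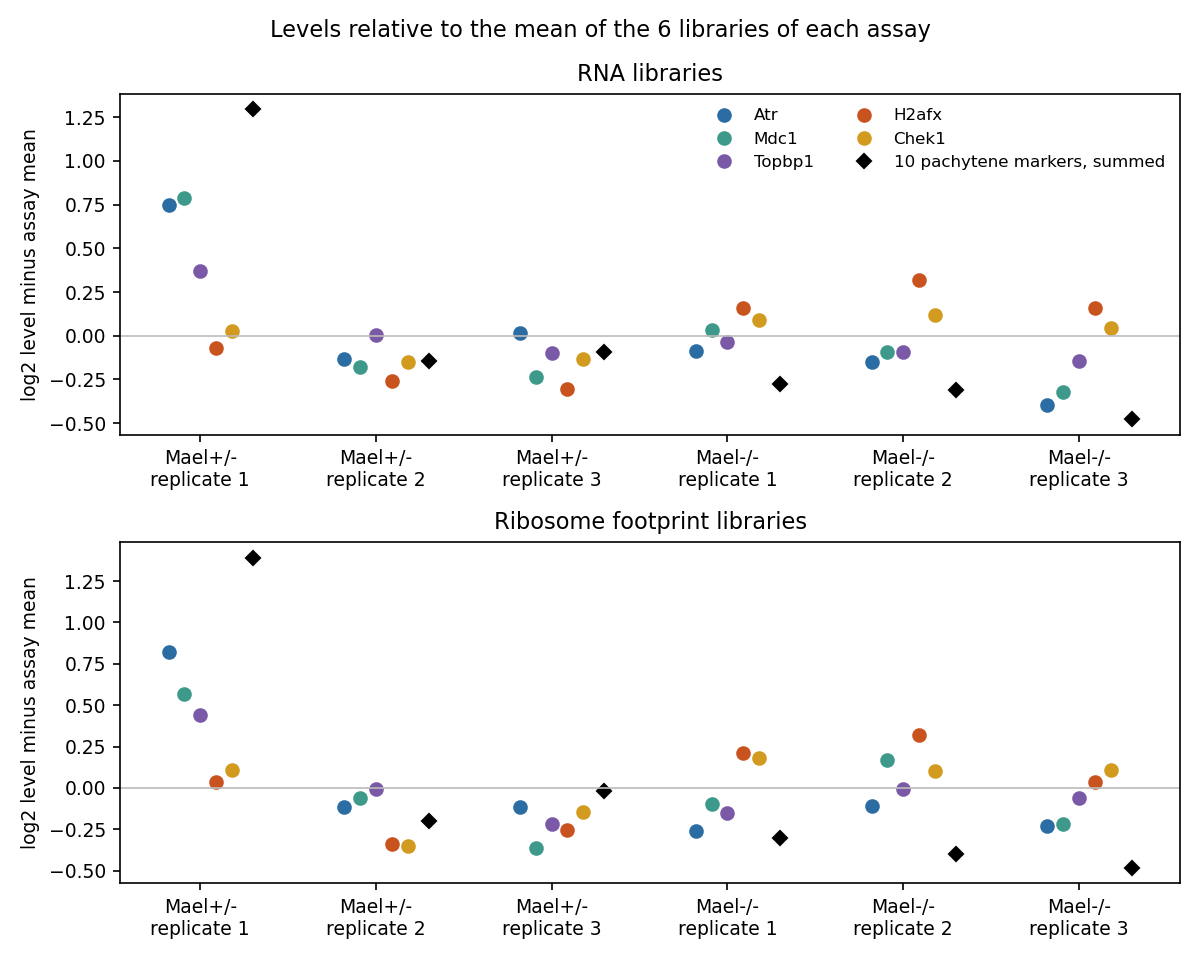
Level of 5 genes in each library as log2 CPM minus the mean of the 6 libraries of the assay (y axis), with the log2 of the summed CPM of 10 pachytene markers on the same scale (black diamonds). In *Mael*+/- replicate 1 the markers stand highest in both panels, with *Atr*, *Mdc1* and *Topbp1* above the other libraries, whereas *H2afx* is highest in *Mael*-/- replicate 2.

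The genes whose profiles over the 12 libraries were nearest to those of the most variable members were looked up among 12528 genes that averaged 20 counts or more in each assay. The measure was the root mean square difference of log2 CPM centred within assay. For *Atr* (SD of the centred values 0.38) the nearest were *Rbm46*, at 0.07, and *Sprtn*, at 0.08. For *Mdc1* (SD 0.35) they were *Ccp110*, at 0.07, and *Ccdc62*, at 0.09. *Trp63* (SD 0.32) had no close neighbour, with *Carf* at 0.15 and *Oxsm* at 0.16. At 12 to 26 footprints per library, counting alone adds to the SD of *Trp63* and to these distances.

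Promoters were read for *Atr*, *Mdc1* and *Topbp1*, the members that were highest in *Mael*+/- replicate 1 in both assays. This held for 18.7% of all genes, and a link of promoter letters to these levels was not tested. RefSeq promoter sequences of GRCm38.p6, from 250 bases before to 50 bases after the gene start, held 8 of the 10 members and not *H2afx* or *Trp63*. They were searched on both strands for the letters TTTNNCGC (E2F, the factors that drive genes of DNA replication and repair), CCAAT (the CCAAT box), GGGCGG (the GC box bound by SP factors) and CCGGAAG (ETS factors). Capitals mark a match to any of the 4, and no matches overlapped in these sequences.
Atr promoter, chr9:95857347-95857646, plus strand: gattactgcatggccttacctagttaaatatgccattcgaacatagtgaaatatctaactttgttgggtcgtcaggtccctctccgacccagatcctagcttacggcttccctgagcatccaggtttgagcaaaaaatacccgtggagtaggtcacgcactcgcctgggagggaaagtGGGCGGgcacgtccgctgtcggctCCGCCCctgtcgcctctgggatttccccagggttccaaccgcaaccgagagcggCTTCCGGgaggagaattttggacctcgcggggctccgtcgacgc
Mdc1 promoter, chr17:35841248-35841547, plus strand: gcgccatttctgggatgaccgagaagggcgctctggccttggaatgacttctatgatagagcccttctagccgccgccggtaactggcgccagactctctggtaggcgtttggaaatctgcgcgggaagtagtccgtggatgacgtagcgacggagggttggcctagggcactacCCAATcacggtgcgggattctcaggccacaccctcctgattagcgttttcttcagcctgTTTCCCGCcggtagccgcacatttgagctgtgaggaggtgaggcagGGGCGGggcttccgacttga
Topbp1 promoter, chr9:103305077-103305376, plus strand: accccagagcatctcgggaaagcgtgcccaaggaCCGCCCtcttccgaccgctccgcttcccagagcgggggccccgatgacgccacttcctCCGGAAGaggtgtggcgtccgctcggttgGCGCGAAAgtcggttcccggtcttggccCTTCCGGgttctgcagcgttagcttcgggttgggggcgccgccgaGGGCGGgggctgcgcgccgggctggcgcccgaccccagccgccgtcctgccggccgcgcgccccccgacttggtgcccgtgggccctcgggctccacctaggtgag
The *Mdc1* match to the E2F letters starts 16 bases before the gene start and that of *Topbp1* 129 bases before it. The *Atr* promoter had none. Over all members with a promoter, 3 of 8 held the E2F letters (*Chek2*, *Mdc1* and *Topbp1*), as did 5.17% of all 32851 promoters. The CCAAT box was found in 5 of the 8 against 37.4% of all promoters, the GC box in 4 against 35.7% and the ETS letters in 3 against 8.86%. The *Chek1* promoter held no whole match to any of the 4. Its window ends inside a possible match to the E2F letters as read on the other strand (GCGNNAAA), which the search could not score. The count of 3 of 8 is thus of matches that lie wholly in the window.

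Per length, the members spanned a wide range of RNA levels. As RPKM, the CPM per kilobase of exon, means over the 6 RNA libraries ran from 799 for *H2afx* to 0.313 for *Trp63*. *H2afx* stood above 99.8% of 14616 genes in RNA and *Trp63* above 6.06%. Next to *H2afx* came *Topbp1* at 56.1 and *Atr* at 55.1 RPKM, whose ranges overlapped, then *Trp53* at 22.3, *Atm* at 20.6, *Brca1* at 18.7 and *Mdc1* at 16.5 RPKM, where the range of each overlapped that of the next. *Chek1* at 10.7 and *Chek2* at 6.41 RPKM were each apart from their neighbours. In footprints per kilobase of coding sequence the order was different, with *H2afx* at 3108 RPKM, apart from the rest, then *Trp53* at 88.2, *Atr* at 65.6 and *Mdc1* at 59.4, whose ranges overlapped from each to the next. The *Atr* mean includes 112 RPKM in *Mael*+/- replicate 1, against 52.8 to 58.7 RPKM in the other libraries. The levels of *H2afx* and *Trp53* carry the doubt on shared reads given above.

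**Figure D4:**
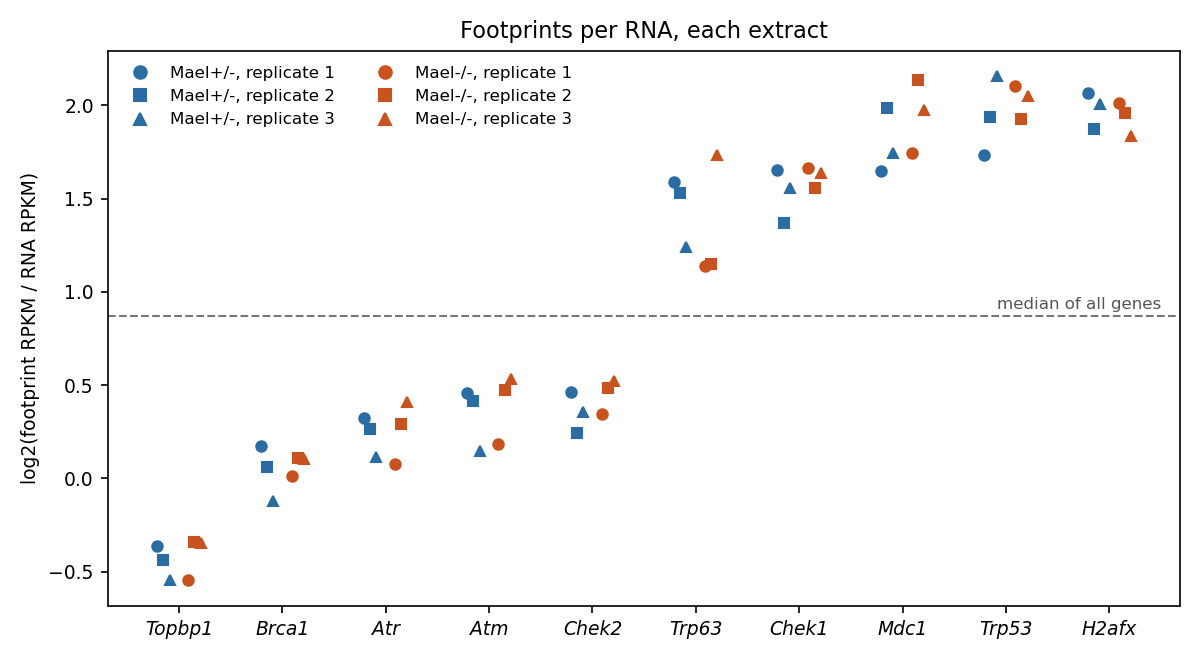
Footprints per RNA of the 10 genes in each of the 6 extracts, as log2 of footprint RPKM over RNA RPKM (y axis), ordered by the *Mael*+/- mean; the dashed line is the median of all genes in *Mael*+/- (0.87). *Topbp1*, *Brca1*, *Atr*, *Atm* and *Chek2* lie below the line in every extract and the other 5 genes above it.

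The ratio of footprints to RNA separated the list into groups that did not follow genotype. The ratio was taken within each extract, on the RPKM scale, and has meaning only relative to other genes: its median over 13395 genes was 0.87 on the log2 scale in both genotypes. *Topbp1* had few footprints for its RNA, with log2 ratios of -0.36, -0.44 and -0.55 in *Mael*+/- and -0.55, -0.34 and -0.35 in *Mael*-/- extracts, below those of all but 3.17% of genes in *Mael*+/-. *Brca1* (mean 0.04 ± 0.15, SD, n = 3), *Atr* (0.23 ± 0.11), *Atm* (0.34 ± 0.17) and *Chek2* (0.35 ± 0.11) were also below the median in each *Mael*+/- extract. On the other side stood *H2afx* (1.98 ± 0.10), *Trp53* (1.94 ± 0.21), *Mdc1* (1.79 ± 0.17), *Chek1* (1.53 ± 0.14) and *Trp63* (1.45 ± 0.19). The ratios of *H2afx* and *Trp53* carry the doubt on shared reads given above. For *H2afx*, RNA that ends at the stem-loop was also divided by the full 1363 exon bases. Its RNA per length may therefore be too low and its ratio too high. The split also followed the coding part of the exon bases used as lengths. In the genes above the median this part ran from 432 of 1363 bases (*H2afx*) to 5127 of 7352 (*Mdc1*). In those below it ran from 1641 of 2288 (*Chek2*) to 7926 of 8074 (*Atr*). The part of these annotated lengths in the ratios was not tested. Relative to the median gene, the ratio in *Mael*+/- testes was 1.90 times for *Mdc1* and 0.401 times for *Topbp1*. In *Mael*-/- testes the means were 1.95 ± 0.20 for *Mdc1* and -0.41 ± 0.12 for *Topbp1*. The fitted change of translation efficiency between genotypes lay between -0.11 (*Trp63*) and 0.18 (*Mdc1*, SE 0.37) on the log2 scale. For *Atr* it was -0.00 (SE 0.34), with a 95% interval from -0.74 to 0.74. This fit does not use the pairing of RNA and footprint libraries by extract. With the extract as a block, *Atr* was at 0.02 (SE 0.11, 95% interval -0.20 to 0.24) and *Mdc1* at 0.15 (SE 0.11), and again no member was called.

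The wider pathway was read through 7 lists of genes, in which 64 genes were tested and 0 were called by edgeR in RNA, footprints or translation efficiency. At an unadjusted p under 0.05 there was 1 of the 64 in RNA (*Scml2*), 2 in footprints (*Bbc3* and *Sesn2*) and 1 in translation efficiency (*Bbc3*). *Scml2*, a Polycomb protein of spermatogonia and the sex body, and *Bbc3*, a death-promoting target of p53, are named here after their values were seen: their log2 differences were 0.23 in RNA and -0.67 in footprints. In RNA, the medians of log2 difference of the lists ran from -0.12 (BRCA1 and BRCA2 partners) to 0.07 (cell cycle effectors), against -0.00 over all genes.

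Sensors that load and activate ATR were measured through 11 genes for the checkpoint clamp and for RPA, the protein that coats single DNA strands. Of these, 8 had a log2 difference below 0 in *Mael*-/- RNA and 3 above it (median -0.04). The largest differences were those of *Rad9b*, the testis-enriched relative of the clamp subunit RAD9A (-0.30, SE 0.16), and *Rad9a* (-0.22, SE 0.13). *Rad9b* RNA was at 39.9, 27.8 and 25.7 CPM in *Mael*+/- and at 25.8, 24.4 and 25.1 CPM in *Mael*-/- testes, with *Mael*+/- replicate 1 apart. Of 8 partners of BRCA1 and BRCA2, 7 were below 0 in RNA (median -0.12), among them *Palb2*, which joins the BRCA proteins (-0.19, SE 0.10), while *Brip1*, a helicase, was at 0.18 (SE 0.14). *Palb2* RNA was at 35.5 to 40.1 CPM in *Mael*+/- and 32.3 to 33.4 CPM in *Mael*-/- testes. Of 10 break sensors and mediators, 7 were above 0 and 3 below (median 0.02), with *Timeless* at 0.16 (SE 0.10) and *Uimc1* at -0.16 (SE 0.11).

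Factors of the unsynapsed axis and of silencing were divided, with 6 above 0 and 7 below among 13 in RNA (median -0.04). *Hormad2*, an axis protein needed to bring ATR to unsynapsed chromosomes, was at -0.43 (SE 0.25). Its RNA was at 42.2, 21.8 and 20.8 CPM in *Mael*+/- and at 19.1, 23.4 and 19.9 CPM in *Mael*-/- testes, so that *Mael*+/- replicate 1 alone stood apart. *Zfy1*, a gene of the Y chromosome whose escape from silencing harms spermatocytes, was at 0.31 (SE 0.26). Its RNA was at 11.5, 5.72 and 6.06 CPM in *Mael*+/- testes and at 10.5, 9.97 and 8.37 CPM in *Mael*-/- testes. *Mael*+/- replicate 1 was thus the highest library and the other *Mael*+/- libraries were the lowest. Cell cycle effectors (6 genes, median 0.07) had *Wee1* at 0.11 (SE 0.13) and *Cdc25b* at 0.10 (SE 0.12). Of 12 p53 relatives, regulators and targets, 6 were above 0 and 6 below in RNA (median 0.01), with *Sesn2* at 0.19 (SE 0.10) and *Mdm2*, which marks p53 for destruction, at -0.15 (SE 0.12). The 4 kinases related to ATM and ATR had a median of 0.00, with *Smg1* at -0.10 (SE 0.11) and *Trrap* at 0.10 (SE 0.11).

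Genes of the X chromosome, the target of the silencing that these proteins set up, were read beside them. Of 584 X-linked genes tested in RNA, edgeR called 0, and called 2 of 584 with a replicate block, where it called 50 of all 14685 genes. DESeq2 called 2 of 717 where it called 66 of all 17742 genes fitted. Without *Mael*+/- RNA replicate 1, edgeR called 5 of 592 where it called 0.43% of all genes. Their median log2 difference was 0.06 in RNA, against -0.00 over all genes, and 65.6% were above 0 against 49.6% of all genes. In footprints the median was 0.05 against -0.01. The part of cell composition in these shifts, with the lower pachytene markers given above, was not tested. The share of gene counts from the X was 2.98%, 3.03% and 3.25% in *Mael*+/- and 3.33%, 3.23% and 3.22% in *Mael*-/- RNA, so that the genotypes overlapped.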

How the data were processed

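RNA libraries (75-base reads of stranded total RNA) and footprint libraries (28 to 34 bases) were processed by the authors. Per the labels and the study's methods, linkers were clipped, footprints matching ribosomal DNA were removed with Bowtie 1.2.2, reads were aligned to mm10 with STAR 2.6.0c and counted with featureCounts (Subread 1.6.4), on the full mRNA (RNA) or on coding sequence alone (footprints). The deposited values used here are raw counts. The gene annotation, the strand setting and the handling of duplicate reads and of reads with several matches are not given in the sources used here, so counts may hold copies of 1 molecule. The deposited result tables of the authors' DESeq2 1.24.0 comparisons, which hold fold changes and p-values, were not used.

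Tests used edgeR 4.0.16 under R 4.3.3 (TMM factors within assay, filterByExpr, quasi-likelihood F-test, Benjamini-Hochberg adjustment over all genes tested) and called at an adjusted p under 0.05. Translation efficiency was fitted over all 12 libraries as a term for genotype by assay, for genes that passed the filter in both assays. The tests were checked on simulated counts that were drawn independently for each library with a common spread. Those counts held no outlying library and no pairing of RNA with footprints, so the check does not cover either. CPM used library sizes from gene counts times TMM factors. RPKM used the union of exons (RNA) or coding exons (footprints) of curated RefSeq transcripts, and GENCODE M21 transcripts gave the shared stretches of sequence. Where log2 CPM were centred, 0.1 CPM was added. Alternatives were DESeq2 1.42.0, median-of-ratios factors, no filter, a replicate block, longest transcripts as lengths, and leaving out each library. Identical replicate pairs numbered 0. The labels do not say that replicates came from separate animals, and p-values then measure the spread between these samples alone.

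By the study's methods each extract gave both libraries, and libraries of the same genotype and number were taken as a pair. Their deviations from the group means correlated at 0.788, 0.651 and 0.693 (*Mael*+/-) and 0.26, 0.25 and 0.261 (*Mael*-/-) over 12537 genes. The *Mael*-/- values were close to the highest between genotypes (0.248 in RNA and 0.239 in footprints). Libraries of unlike numbers were not compared. The pairing by number is thus not settled for *Mael*-/-, where the ratios per extract and the extract block rest on it. The reported translation efficiency fit has no term for the extract, and the fit with it is given as an alternative. The members and gene lists were chosen with earlier results of these data known. Beside the 10 members and *Mael*, the 2 genes of each pathway list with the largest RNA difference at a mean of at least 20 counts are named. A planned count of repeat copies inside the gene bodies was not run, because the repeat rows carry no coordinates.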

Additional observations from a re-analysis of the deposited data

How the results depend on the processing

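With 3 libraries per group, no member was called in footprints or translation efficiency under any alternative. Leaving out 1 library at a time gave 2 to 64 genes called in RNA (17 with all libraries; 64 without *Mael*+/- RNA replicate 1), 2 to 17 in footprints (8 with all; 17 without *Mael*+/- footprint replicate 1), and 0 or 1 members in RNA, the 1 being *H2afx*. DESeq2 called 66 genes in RNA, 26 in footprints and 1 member (*H2afx* RNA). Numbers shared between genotypes were not taken to pair the samples. Their correlations of deviations were 0.248, 0.00302 and 0.164 in RNA and 0.0681, 0.239 and 0.0511 in footprints. A replicate block called 50 genes in RNA and 23 in footprints, and no member. With the extract as a block, translation efficiency had 0 calls, as without it, and 281 genes at an unadjusted p under 0.05 against 53. The causes were not tested.

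Of 370 values of the 30 member differences under alternatives, 319 kept direction and call, 2 gained a call and 49 changed sign. With libraries left out, ranges that crossed 0 were -0.0535 to 0.0300 (*Brca1*), -0.50 to 0.0900 (*Mdc1*), -0.0291 to 0.0809 (*Trp53*) and -0.35 to 0.0652 (*Trp63*) in RNA, and -0.0886 to 0.0639 (*Brca1*), -0.33 to 0.16 (*Mdc1*), -0.31 to 0.0331 (*Topbp1*) and -0.41 to 0.0664 (*Trp63*) in footprints. In translation efficiency they were -0.0583 to 0.15 (*Atm*), -0.32 to 0.38 (*Atr*), -0.0264 to 0.20 (*Chek1*), -0.0649 to 0.0922 (*Brca1*), -0.13 to 0.0596 (*H2afx*), -0.23 to 0.48 (*Mdc1*), -0.13 to 0.22 (*Topbp1*), -0.0276 to 0.14 (*Trp53*) and -0.30 to 0.17 (*Trp63*). The *Brca1* footprint difference was -0.000495 with median-of-ratios factors and -6.61e-05 in DESeq2. The *Atr* translation efficiency was 0.000118 with those factors, 0.00235 without the filter, 0.00168 in DESeq2 and 0.0181 with the extract as a replicate block. The X-linked median in RNA stayed between 0.03 and 0.09 under all alternatives. Taking the longest transcript as length moved no *Mael*+/- level per length by more than the replicate SD. The planned repeat counts were not run.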

Other observations

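Histone genes, taken by symbol and of several histone types, were looked at after the values of *H2afx* had been seen. They therefore carry no test as a group. The coding stretches that *H2afx* shares with other genes were mostly in H2A genes such as *Hist1h2ai*, not across all these types. Of 68 such genes by symbol, 59 could be tested in RNA, of which 57 had a log2 difference above 0 in *Mael*-/- testes and 2 below it, with a median of 0.21 against -0.00 over all genes. Of these, 17 were higher in all *Mael*-/- than in all *Mael*+/- RNA libraries, where 4.77% of all genes were, and 0 were called by edgeR. In footprints, 30 of the 59 were above 0 and 29 below, with a median of 0.00, and 2 had groups that did not overlap with *Mael*-/- higher, where 4.19% of all genes did. Summed over the family, RNA was at 12531, 11317 and 10579 CPM in *Mael*+/- and at 12746, 14278 and 12654 CPM in *Mael*-/- testes, and footprints were at 17138, 13726 and 13067 CPM against 14982, 15922 and 13181 CPM. The gene with the profile nearest to *H2afx* over the 12 libraries was a histone gene as well, *Hist1h2bm*, at a root mean square difference of 0.07. It was at 401, 397 and 382 CPM in *Mael*+/- RNA and at 506, 528 and 503 CPM in *Mael*-/- RNA. Reads shared between copies of this family may be split among them, and the part of cell composition was not tested.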
